A study of Mus musculus with 4 samples.

Results

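Titin, the giant spring and ruler of the sarcomere, was followed here together with proteins that sit at the M-band and on the thick filament: Obsl1, the adaptor protein that links titin to myomesin, the myomesins Myom1, Myom2 and Myom3, and Mybpc3, the cardiac myosin-binding protein C. The genes were found by joining the Ensembl identifiers of the count table to symbols, and their splicing events by the gene name in the event table. They are 6 of the 21552 genes counted and hold 177 of the 124326 events, 162 exons and 15 alternative splice sites.

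The infarcted group was 2 C57BL/6 mice whose left anterior descending coronary artery had been tied permanently, and the other group was 2 uninjured C57BL/6 mice. Neither the age and sex of the mice, nor whether the uninjured mice had a sham operation, is given in the labels, and the source of all 4 libraries is labelled as the remote area. The title places the tissue 7 days after the infarct. Polyadenylated RNA of each heart was sequenced as single-end reads of 50 bp, and the libraries held 35715115 to 70885393 counts, of which 36.7% to 48.4% lay on mitochondrially encoded genes. With 1 library for each mouse, p-values rest on the spread between 2 mice in each group.

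In a sarcomere, each titin molecule runs from the Z-disc to the M-band. Its I-band stretch, built of immunoglobulin domains and the PEVK segment, acts as a spring, and its A-band stretch is bound to myosin. Adult hearts make a short, stiff form called N2B, in which most of the I-band exons are skipped, and a longer, more compliant form called N2BA that keeps them and is frequent in the fetal heart. Myomesins cross-link thick filaments at the M-band. Myomesin 1 has a form with an extra elastic domain, EH-myomesin, made mostly in the embryonic heart. Myosin-binding protein C lies in the C-zone of the thick filament and tunes the interaction of myosin with actin.

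Sequences of some exons and of a junction named in the splicing results are given first, 5′ to 3′, from GENCODE M21 transcripts on GRCm38. In each exon the capitals are the exon and the lower-case letters are the ends of the exons that flank it in the mRNA. The titin exons were picked for higher inclusion in both infarcted than in both uninjured libraries, and none of them passed the test given below. Exons 75 and 132 lay close to the read minimum of that test. The other exons are the alternative exons of their genes, and positions follow the sequences.
Ttn exon 75: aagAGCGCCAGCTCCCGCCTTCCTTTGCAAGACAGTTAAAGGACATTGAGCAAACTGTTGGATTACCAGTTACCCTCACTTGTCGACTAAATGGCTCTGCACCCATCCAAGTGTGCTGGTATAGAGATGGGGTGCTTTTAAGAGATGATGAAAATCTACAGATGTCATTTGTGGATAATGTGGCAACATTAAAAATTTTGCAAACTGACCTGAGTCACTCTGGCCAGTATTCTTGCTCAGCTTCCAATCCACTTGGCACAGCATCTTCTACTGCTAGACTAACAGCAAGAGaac
Ttn exon 102: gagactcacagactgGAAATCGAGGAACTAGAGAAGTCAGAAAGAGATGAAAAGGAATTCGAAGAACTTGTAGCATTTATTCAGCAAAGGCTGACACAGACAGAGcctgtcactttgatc
Ttn exon 132: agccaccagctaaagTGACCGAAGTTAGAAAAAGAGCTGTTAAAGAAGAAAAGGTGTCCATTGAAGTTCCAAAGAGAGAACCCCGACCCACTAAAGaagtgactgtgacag
Myom1 exon 18: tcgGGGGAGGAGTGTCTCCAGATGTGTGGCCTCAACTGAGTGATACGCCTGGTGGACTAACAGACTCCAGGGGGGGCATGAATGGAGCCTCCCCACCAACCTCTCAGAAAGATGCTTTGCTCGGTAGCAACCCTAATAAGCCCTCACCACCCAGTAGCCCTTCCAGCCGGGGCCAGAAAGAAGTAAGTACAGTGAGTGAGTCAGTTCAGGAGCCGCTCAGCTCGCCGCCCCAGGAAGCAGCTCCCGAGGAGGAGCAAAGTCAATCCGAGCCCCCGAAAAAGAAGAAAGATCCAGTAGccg
Obsl1 exon 2: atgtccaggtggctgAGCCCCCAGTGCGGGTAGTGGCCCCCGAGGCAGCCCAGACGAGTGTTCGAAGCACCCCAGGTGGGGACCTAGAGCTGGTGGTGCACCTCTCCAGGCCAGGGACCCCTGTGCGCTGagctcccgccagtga
Mybpc3 exon 8: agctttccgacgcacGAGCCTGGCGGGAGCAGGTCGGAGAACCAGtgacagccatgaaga
Mybpc3 exon 10: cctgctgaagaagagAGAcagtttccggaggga
Ttn skipping junction: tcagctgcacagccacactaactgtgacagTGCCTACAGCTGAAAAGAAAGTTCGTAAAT
In the junction, lower case marks the last 30 bases of the upstream exon and capitals the opening 30 bases of the exon to which N2B titin joins it.

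The titin exons lie on the minus strand of chromosome 2, exon 75 at chr2:76889304-76889591, exon 102 at chr2:76871076-76871165 and exon 132 at chr2:76852057-76852137, with exon numbers of transcript Ttn-203. Myom1 exon 18 (chr17:71082203-71082496, plus strand, Myom1-202) is 294 nt long and is the exon of EH-myomesin. Obsl1 exon 2 (chr1:75492228-75492342, minus strand), numbered as in a shorter annotated transcript, is 115 nt, a length that is not a multiple of 3. Mybpc3 exons 8 (chr2:91121732-91121761) and 10 (chr2:91122340-91122342), on the plus strand in Mybpc3-203, are 30 nt and 3 nt long.

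At the level of whole genes, 0 of the 6 changed by edgeR's quasi-likelihood test at an adjusted p below 0.05, while 33.0% of the 13905 genes tested did, 18.3% higher and 14.6% lower in infarcted hearts. In the same libraries 6 of 10 cardiomyocyte markers fell by this test, among them Myl2, Myl3 and Tnni3. The markers Myh6, Actc1, Ryr2 and Actn2 did not pass. The 95% intervals of the 6 differences still allow changes, from 0.74-fold to 1.72-fold for titin, so the test does not show equal levels.

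Titin (Ttn, ENSMUSG00000051747, chr2:76703980-76982547, minus strand) had 2130 and 2107 CPM (counts scaled to library size) in infarcted replicates 1 and 2, and 2392 and 1375 CPM in uninjured replicates 1 and 2. Both infarcted values lay between the uninjured ones, and the uninjured pair spread more than the infarcted pair. The log2 fold change of infarcted over uninjured was 0.17 ± 0.28 (SE, n = 2 per group; edgeR adjusted p = 0.68, 95% interval -0.44 to 0.78). Without uninjured replicate 2 the value was -0.18.

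Obsl1 (ENSMUSG00000026211, chr1:75479310-75506452, minus strand) was measured at 65.5 and 61.1 CPM in infarcted and 68.8 and 91.5 CPM in uninjured libraries. It was the 1 gene of the 6 whose groups did not overlap, against 70.0% of all genes tested. The gap between infarcted replicate 1 and uninjured replicate 1 was small, and uninjured replicate 2 stood above the other 3 libraries. The log2 fold change was -0.34 ± 0.20 (SE, n = 2 per group; edgeR adjusted p = 0.21, 95% interval -0.77 to 0.09), and -0.13 without uninjured replicate 2.

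Among the myomesins, Myom1 (ENSMUSG00000024049, chr17:71002633-71126856, plus strand), the main M-band cross-linker in heart, was at 1452 and 1500 CPM in infarcted and 1397 and 1575 CPM in uninjured libraries. The infarcted values again fell inside the uninjured range, and the log2 fold change was -0.01 ± 0.23 (SE, n = 2 per group; edgeR adjusted p = 0.98, 95% interval -0.51 to 0.49). Myom2 (ENSMUSG00000031461, chr8:15057653-15133541, plus strand), the M-protein of adult heart and fast skeletal muscle, had 680 and 1312 CPM in infarcted and 912 and 985 CPM in uninjured libraries. Infarcted replicate 2 held 1.93 times the level of infarcted replicate 1, and the infarcted pair enclosed the uninjured pair. The log2 fold change was 0.07 ± 0.29 (SE, n = 2 per group; edgeR adjusted p = 0.88, 95% interval -0.57 to 0.71), and it was -0.51 without infarcted replicate 2.

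Myom3 (ENSMUSG00000037139, chr4:135759715-135815564, plus strand), the myomesin known from slow and intermediate skeletal muscle fibres, was rare, with 164 to 237 counts per library. Its levels were 3.28 and 5.65 CPM in infarcted and 3.74 and 3.57 CPM in uninjured libraries. As for Myom2, infarcted replicate 2 was the highest library and infarcted replicate 1 the lowest. The log2 fold change was 0.29 ± 0.30 (SE, n = 2 per group; edgeR adjusted p = 0.49, 95% interval -0.35 to 0.93), and -0.18 without infarcted replicate 2.

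Infarcted replicate 2 also differed from the other 3 libraries in atrial mRNA. The 3 tested genes of a list of 6 atrial markers summed to 295 and 1948 CPM in infarcted and 88.6 and 49.4 CPM in uninjured libraries. Of the 3, 0 passed the test. Most of each sum was Nppa, at 294 and 1456 CPM in infarcted and 86.9 and 46.7 CPM in uninjured libraries. Myl4 was at 1.34 and 361 CPM against 1.42 and 2.44 CPM, so infarcted replicate 1 was not above the uninjured libraries. Myl7, the atrial regulatory light chain, had 4 and 5526 counts in infarcted and 13 and 20 counts in uninjured libraries. Sln, Mybphl and Bmp10 had 0 counts in infarcted replicate 1 and 1457, 1123 and 58 counts in infarcted replicate 2. The part of this in the levels of Myom2 and Myom3, and in the splicing values given below, was not tested.

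Mybpc3 (ENSMUSG00000002100, chr2:91118144-91136516, plus strand) was the most abundant of the 6 by CPM, at 3141 and 3140 CPM in infarcted and 3037 and 3637 CPM in uninjured libraries. The infarcted libraries were nearly equal and lay inside the uninjured range. The log2 fold change was -0.09 ± 0.25 (SE, n = 2 per group; edgeR adjusted p = 0.82, 95% interval -0.63 to 0.46).

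**Figure D1:**
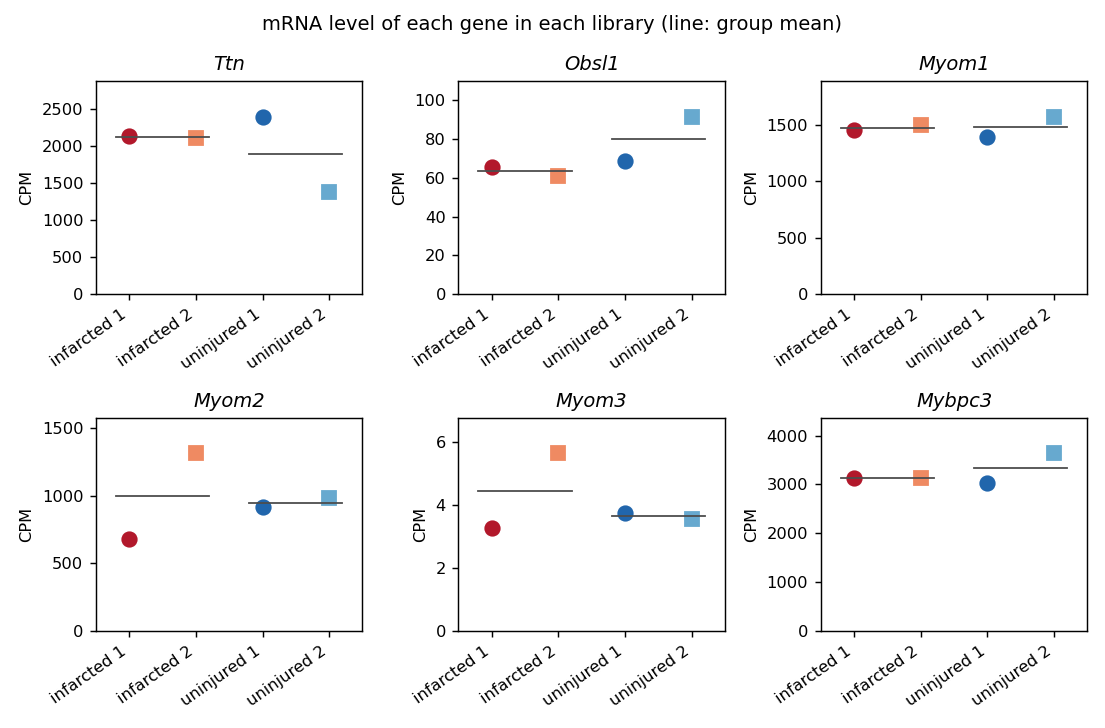
Levels of the 6 genes, in CPM with TMM library sizes on axes that start at 0, by library; each point is 1 library and each line a group mean of 2. Obsl1 is the 1 gene whose groups do not overlap, and infarcted replicate 2 is highest for Myom2 (1312 CPM) and Myom3 (5.65 CPM).

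**Figure D2:**
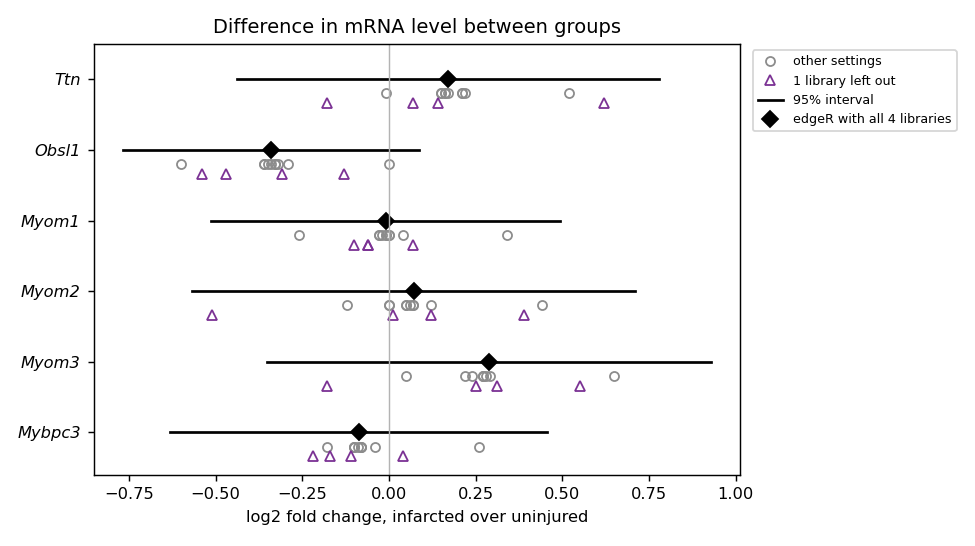
Log2 fold change of infarcted over uninjured for each gene: diamonds are the edgeR values from all 4 libraries, bars their 95% intervals, circles the other settings and triangles the fits that leave out 1 library. All 6 intervals include 0, and the triangles of Ttn run from -0.18 to 0.62.

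Per kilobase of the longest annotated transcript, the order of levels was Mybpc3, Myom1, Myom2, Ttn, Obsl1 and Myom3. Mybpc3 stood at 754 ± 0.21 CPM per kb in infarcted and 802 ± 102 CPM per kb in uninjured hearts (SD, n = 2 per group). Myom1 was at 261 ± 6.08 and 263 ± 22.3 CPM per kb and Myom2 at 196 ± 88.1 and 187 ± 10.2 CPM per kb, so that single libraries of these neighbours overlapped. Ttn, at 19.8 ± 0.16 and 17.6 ± 6.73 CPM per kb, overlapped with Obsl1, at 11.1 ± 0.54 and 14.1 ± 2.83 CPM per kb. Myom3 was lowest, at 0.80 ± 0.30 and 0.66 ± 0.02 CPM per kb. The titin value is divided by the 106824 nt of Ttn-203, which holds 347 exons, and a shorter form would give a higher value per kb. Titin reads were also concentrated near the 3′ end, as given below, so its place in this order depends on where reads are counted. Titin exon 346 had 3077 and 2381 junction reads in infarcted and 3630 and 2850 in uninjured libraries. Myom1 exon 35 had fewer, 899 and 856 against 1004 and 1860.

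Of the 177 splicing events, 51 had at least 10 reads in every library, and 12 were at 100% inclusion or use in all 4. The test needs 10 reads in each library and 5 reads of each form over the libraries, and 26 exons passed: 22 of Ttn, 2 of Myom1, 1 of Obsl1 and 1 of Mybpc3, with 0 of Myom2 and Myom3. None of the 15 splice sites passed. edgeR's quasi-likelihood test of inclusion called 0 of the 26, and 6 had an unadjusted p below 0.05. Over all 5490 exons tested it called 0 as well, with 7.03% at an unadjusted p below 0.05 and a smallest adjusted p of 0.69, and limma on the logit and DESeq2 also called 0. All exon differences below are therefore values that did not pass the test. Of the 26 exons, 17 share a single titin junction, and these hold 4 of the 6 low p-values. The read minimum chose these 17 in favour of inclusion in infarcted hearts, as given below. The share of low p-values among the 26 is thus not set against that of all exons.

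The variable exons of titin belong mainly to the I-band. A single junction, from exon 47 to exon 202 of Ttn-203, leaves out 154 exons and 24843 nt of mRNA, and annotated transcript Ttn-201, which has 192 exons, joins the same exons. The event table scores 79 exons against this junction, of which 76 have lengths in multiples of 3, and they run from 27 to 564 nt. Inclusion is the percent of corrected reads that join an exon to its neighbours, out of these plus the corrected reads that skip it. Exon 60, at 0% in every library, had 7 and 4 skipping reads in infarcted and 12 and 12 in uninjured libraries. Exon 118, also at 0%, had 11 and 4 against 26 and 19. The skipping reads are therefore not those of the shared junction alone. Because exons can share skipping reads, and neighbouring exons share inclusion reads, the 79 values are not independent of each other.

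Over the 78 of these exons with a read in every library, mean inclusion was 29.6% and 42.3% in infarcted and 20.9% and 26.5% in uninjured libraries. Both infarcted means lay above both uninjured means, and the group means were 35.9 ± 9.0% and 23.7 ± 4.0% (SD, n = 2 per group). Infarcted replicate 2, the library with the atrial mRNA, was the highest of the 4. The difference of 12.3 points was 5.9 points without this library and 18.6 points without infarcted replicate 1. Both infarcted libraries were above both uninjured ones in 32 of the 78 exons and below both in 0, and in the other 46 the groups overlapped or tied, 10 of them at 0% throughout. Among the 5490 exons tested in the series, 39.9% had groups that did not overlap, 17.0% with both infarcted libraries higher and 22.9% with both lower, but these had at least 10 reads in each library, a minimum that most of the 78 did not reach. The count of 32 was 63 without infarcted replicate 1 and 49 without uninjured replicate 2. An exon that meets this rule in all libraries also meets it with any library left out. Such counts can therefore only stay or rise, and their rise is no support. Infarcted replicate 1 exceeded uninjured replicate 2 in 36 exons and was below it in 23, whereas infarcted replicate 2 exceeded uninjured replicate 2 in 64 and was below it in 1.

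Few reads lie behind these shares. The median over the exons of the corrected skipping reads was 6.23 and 2.54 in infarcted and 12.96 and 10.5 in uninjured libraries, and the median of the inclusion reads was 1.74 and 1.33 in infarcted and 1.08 and 1.09 in uninjured libraries. Skipping reads were thus fewer in both infarcted libraries, while the median inclusion reads differed little. The infarcted libraries were also the 2 with fewer counts in all. Counts on titin itself were 106511 and 88362 in infarcted and 114562 and 86311 in uninjured libraries. Both infarcted libraries thus held more titin counts than uninjured replicate 2. The part of depth in the skipping reads was not tested. Since infarcted libraries held so few skipping reads, an exon reached 10 reads there mainly through inclusion. The 17 exons of the junction that passed the test's minimum are thereby chosen in favour of inclusion in infarcted hearts, and neither counts over them nor their p-values are given as support for a difference. Single exons are given below as values, those with most reads first.

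Along the transcript, inclusion was low, then high, then low again in all 4 libraries, as shown by 6 successive groups of 13 exons. Over exons 48 to 60, of 279 to 564 nt, mean inclusion was 2.05% and 4.27% in infarcted and 2.90% and 0.59% in uninjured libraries, and both infarcted libraries were above both uninjured ones in 1 exon. Over exons 61 to 73 it was 9.90% and 18.7% against 3.95% and 3.06%, and over exons 74 to 87 it was 12.7% and 32.7% against 4.30% and 8.80%. Most exons in these stretches have the length of an immunoglobulin domain. From exon 61 to 73, both infarcted libraries were above both uninjured ones in 5 of the 13 exons. From exon 74 to 87 this held for 6 of the 13.

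Over exons 88 to 100 mean inclusion reached 49.8% and 74.6% in infarcted and 37.9% and 54.4% in uninjured libraries, so that here infarcted replicate 1 was below uninjured replicate 2. It was highest over exons 101 to 113, of 27 to 402 nt, at 80.6% and 90.5% against 66.4% and 77.9%. Over the last 13, from exon 116 to 200 and 75 to 210 nt long, it was 22.3% and 32.9% against 9.71% and 14.3%. Both infarcted libraries were above both uninjured ones in 3 of the 13 exons from 88 to 100. The count was 8 of the 13 exons from 101 to 113 and 9 of the last 13. Infarcted replicate 2 had the highest mean of the 4 libraries in all 6 groups. These groups were formed after the values were seen and carry no test.

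**Figure D3:**
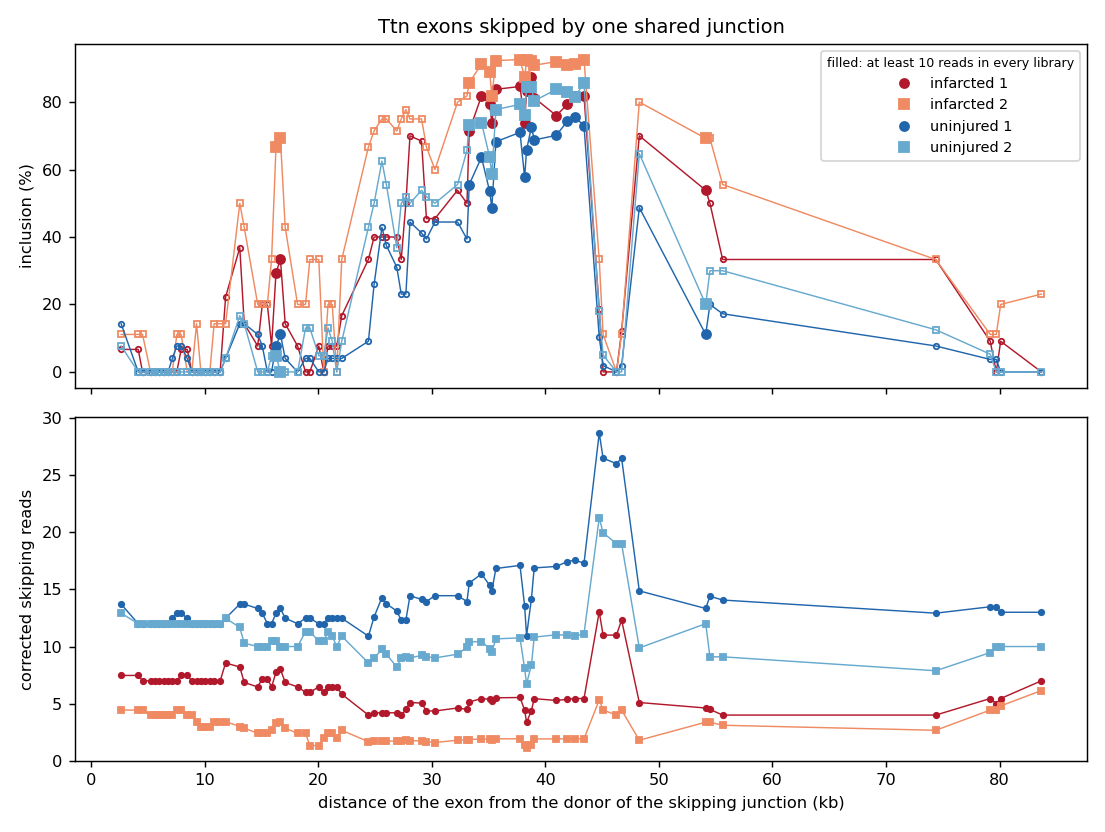
Inclusion in percent (top) and corrected reads that skip the exon (bottom) for 78 Ttn exons, by distance from the donor of the shared skipping junction in kb. Filled symbols mark exons with at least 10 reads in every library. Inclusion peaks over exons 101 to 113, where infarcted replicate 2 averages 90.5% and uninjured replicate 1 66.4%, and both infarcted libraries hold fewer skipping reads than the uninjured ones.

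The exons with most reads lay in the stretch from 101 to 113, and 8 of them had at least 20 reads in every library. Of these, exons 110, 111, 112 and 113 differed least between groups, by 7.04, 6.38, 7.99 and 7.95 points. Exon 113 was at 81.8% and 92.6% in infarcted and 73.0% and 85.5% in uninjured libraries, and exon 112 at 81.8% and 91.3% against 75.6% and 81.5%. Infarcted replicate 1 was below uninjured replicate 2 in exons 110, 111 and 113 and barely above it in exon 112.

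Further upstream in the same stretch, exon 102, of 90 nt, was included at 79.3% and 88.9% in infarcted and 53.5% and 63.6% in uninjured libraries. The Wilson 95% interval of infarcted replicate 1, 62.1% to 91.5%, overlapped that of uninjured replicate 2, 44.2% to 78.5%; such intervals cover counting error only. The neighbouring exon 103 was at 73.9% and 81.8% against 48.7% and 58.6%. Exons 101, 104, 105, 108 and 109 also had both infarcted libraries above both uninjured ones, with differences of 17.8, 15.03, 13.5, 11.3 and 11.5 points in that order. In all of these exons the order of the libraries was infarcted replicate 2, infarcted replicate 1, uninjured replicate 2 and uninjured replicate 1.

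Exon 132, an 81-nt exon, reached the minimum of 10 reads with only 10 and 11 reads in the infarcted libraries, of which 5.38 and 7.62 were inclusion reads. It was included at 53.9% and 69.2% in infarcted and 11.1% and 20% in uninjured libraries, a difference of 46.0 points. The groups did not overlap, but rounded Wilson 95% intervals of 23.7% to 76.3% in infarcted replicate 1 and 7.05% to 45.2% in uninjured replicate 2 overlapped.

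The adjacent exons 74 and 75, of 279 and 288 nt, had similar values. Exon 75 was at 33.3% and 69.2% in infarcted and 11.1% and 0% in uninjured libraries, where 0 of 10 reads allows a share of up to 27.8% by the Wilson interval. Exon 74 was at 29.4% and 66.7% in infarcted and 7.69% and 4.76% in uninjured libraries. Both exons had 10 to 15 reads in each library, just inside the minimum of 10, and infarcted replicate 2 held the higher value of its group in each. Exons 98, 99, 120 and 133 of the same junction, with 9 reads in a library, lay just outside it. Exon 133 was at 50% and 69.2% in infarcted and 20% and 30% in uninjured libraries.

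Exons 114 and 115, of 78 nt each and scored against other junctions, had the same direction. Exon 114 was at 65.5% and 90.9% in infarcted and 44.8% and 63.6% in uninjured libraries, with infarcted replicate 1 close to uninjured replicate 2. Exon 115 was at 29.0% and 46.7% against 18.6% and 13.6%. Of 52 further exon events between exons 121 and 201 with a read in every library, 43 were at 0% throughout and the highest single value was 20%. All 52 had fewer than 10 reads in some library, and as few as 2.

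Not all titin exons scored were higher in infarcted libraries. Exon 46, the 2646-nt exon that encodes the N2B unique sequence, was at 100% in every library, from 17, 27, 28 and 22 reads. Exon 225, of 267 nt, was at 34.3% and 23.1% in infarcted and 35.9% and 27.3% in uninjured libraries, with overlapping groups. The penultimate exon, number 346 and known as Mex5, encodes part of titin's M-band end. It was at 99.87% and 99.58% in infarcted and 99.94% and 100% in uninjured libraries, lower in both infarcted libraries (edgeR unadjusted p = 0.0475, adjusted p = 0.69).

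Titin reads were not even along its mRNA, and the unevenness differed between libraries. Exon 346 had 237 and 88.2 times the junction reads of exon 11 in infarcted and 59.5 and 36.1 times in uninjured libraries, a higher ratio in both infarcted libraries. Relative to exon 46 the ratios were 181 and 88.2 in infarcted and 130 and 130 in uninjured libraries, with infarcted replicates on either side. For shorter mRNAs the order was the other way: reads at Myom1 exon 35 over exon 11 were 0.65 and 0.65 in infarcted and 0.86 and 1.31 in uninjured libraries. Myom2 exon 35 over exon 4 gave 0.69 and 0.73 against 1.14 and 1.55, and Obsl1 exon 15 over exon 6 gave 0.56 and 0.63 against 0.68 and 0.75. The part of read position in the levels and inclusion values was not tested.

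**Figure D4:**
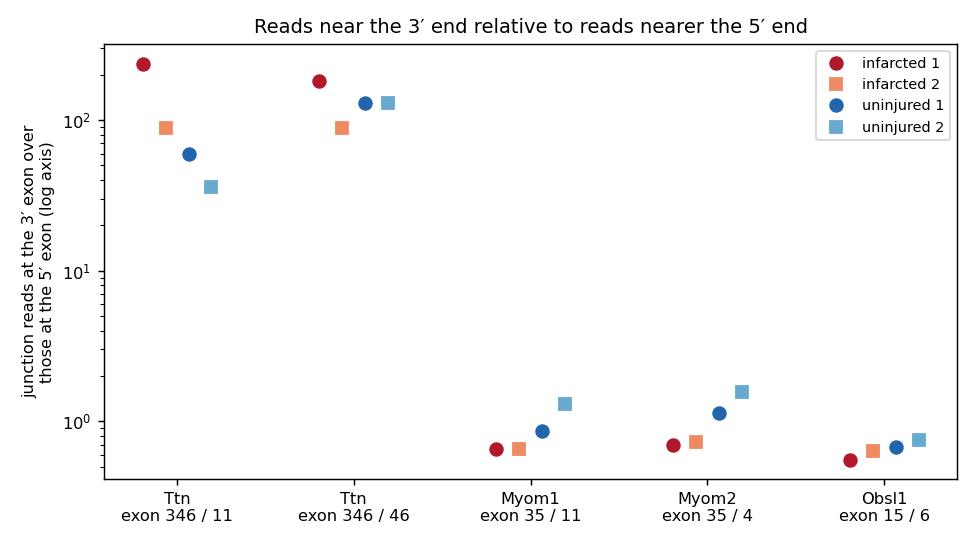
Reads at an exon nearer the 3′ end divided by reads at an exon nearer the 5′ end of the same mRNA, by library, on a log axis. For titin the ratios run from 36.1 to 237, and for Myom1, Myom2 and Obsl1 both uninjured libraries lie above both infarcted ones.

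The EH exon of Myom1, exon 18, was a minor form in all hearts, included at 5.89% and 4.87% in infarcted and 3.35% and 5.75% in uninjured libraries. Uninjured replicate 1 was lowest, and the other uninjured library fell between the infarcted ones. These shares rest on 743 to 1011 reads, with Wilson intervals from 2.32% to 4.85% in uninjured replicate 1 and 4.48% to 7.61% in infarcted replicate 1. The log2 odds ratio was 0.27 ± 0.50 (SE, n = 2 per group; edgeR adjusted p = 0.95), and -0.11 without uninjured replicate 1. Myom1 exon 21 was included at 99.6% to 100%. Myom2 exons 4 and 35 were at 99.5% to 100%, and the 1 event of Myom3, exon 32, had too few reads to test, down to 3.

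Obsl1 exon 2 had the largest difference outside titin. It was included at 63.4% and 39.9% in infarcted and 67.2% and 67.2% in uninjured libraries. Infarcted replicate 2 was far below the other 3, while infarcted replicate 1 was close to the uninjured libraries. Infarcted replicate 2 is also the library with the atrial mRNA given above. Wilson intervals were 26.4% to 55.4% in infarcted replicate 2 and 50.0% to 73.9% in infarcted replicate 1, and the log2 odds ratio was -0.91 ± 0.66 (SE, n = 2 per group; edgeR adjusted p = 0.80). The other 5 exons of Obsl1 were at 100% in every library.

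Mybpc3 exon 8 was included at 99.69% and 99.66% in infarcted and 99.95% and 99.96% in uninjured libraries. The corrected skipping reads were 9.06 in each infarcted library and 1.30 and 1.37 in the uninjured ones, beside 2605 to 3421 inclusion reads. The groups did not overlap, and the log2 odds ratio was -3.13 ± 0.74 (SE, n = 2 per group; edgeR unadjusted p = 0.0059, adjusted p = 0.69). Mybpc3 exon 10, the 3-nt exon, was included at 99.2% and 98.5% in the infarcted libraries and has no value in the uninjured ones, so it was not compared.

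**Figure D5:**
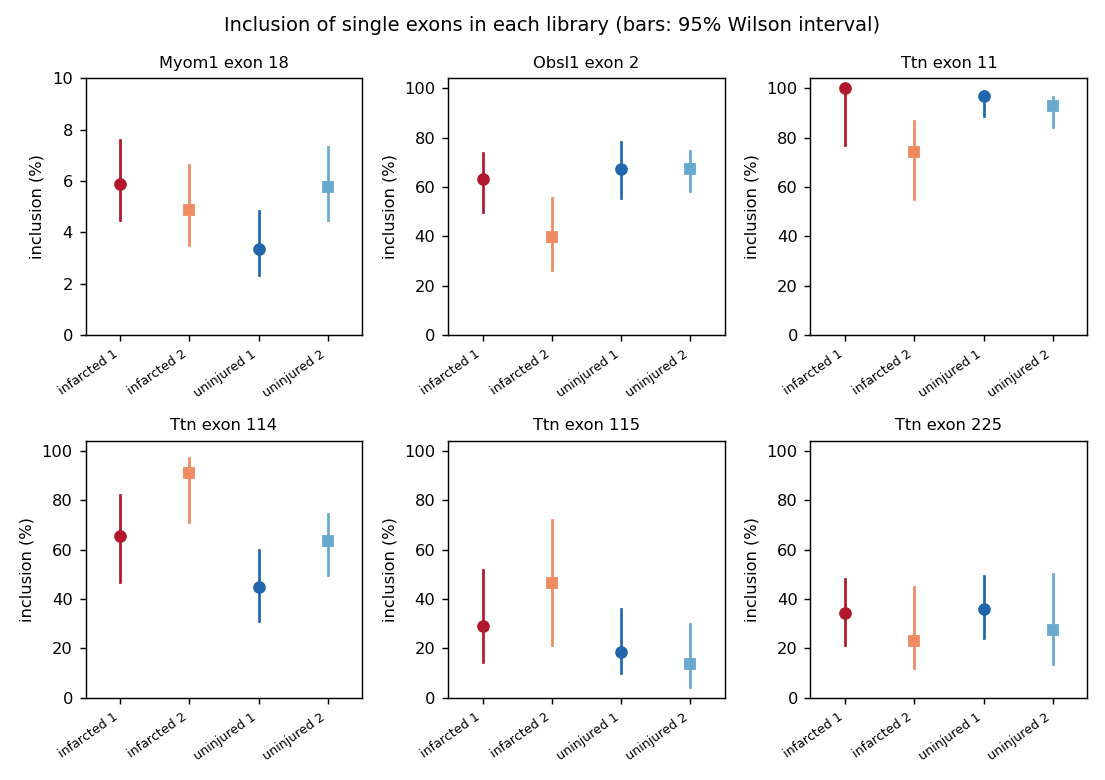
Inclusion of the 6 tested exons outside the shared junction with a mean under 95%, in percent by library, with Wilson 95% intervals for counting error; the Myom1 axis ends at 10%. Obsl1 exon 2 is lowest in infarcted replicate 2 at 39.9%, and Myom1 exon 18 lies between 3.35% and 5.89%.

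Of 20 M-band and titin-binding genes, 4 rose and 6 fell by edgeR at an adjusted p below 0.05; among all genes tested 18.3% rose and 14.6% fell, so the share that rose was near that of all genes. The median of the list's log2 fold changes was -0.22, beside 0.02 over all genes tested. Those that rose include the titin-binding ankyrin repeat proteins of the stretch response, Ankrd1 at 1998 and 3737 CPM against 766 and 419 CPM, and Ankrd2, and the titin-binding LIM protein Fhl1, with log2 fold changes of 2.27 ± 0.39, 3.18 ± 0.52 and 2.01 ± 0.32 (SE, n = 2 per group). The E3 ligase Trim63 (MuRF1), which binds titin near the M-band, fell by 1.12 on the log2 scale, M-band creatine kinase Ckm by 1.25 and the M-band protein Lrrc39 by 0.83. With library totals as the scale the counts were 6 higher and 2 lower, and the list's median was 0.13.

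Of 9 thick filament genes, 6 could be tested, of which 1 rose and 3 fell, beside 18.3% and 14.6% of all genes tested. The median of the 6 was -0.91 on the log2 scale. Mybpc2, the fast skeletal form of myosin-binding protein C, rose by 1.28 ± 0.20 on the log2 scale, from 16.7 and 14.2 CPM to 39.2 and 35.7 CPM. Of the light chains of ventricular myosin, Myl2 fell by 1.37 and Myl3 by 1.28, and the myosin heavy chain Myh7b fell by 1.21. Myh7, the slow myosin of the stressed heart, was at 344 and 1632 CPM against 67.8 and 43.5 CPM and did not pass (edgeR adjusted p = 0.11), though it passed in 3 of 14 alternatives. Over 9 genes tested, the list's median was 1.0 with no filter on low counts and 1.13 without infarcted replicate 1.

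At the Z-disc, where titin's other end is anchored, 4 of 16 genes rose and 3 fell, with a median of 0.05, shares not far from the 18.3% and 14.6% of all genes. With library totals as the scale 7 rose and 1 fell. Synpo2l rose by 1.98 and Flnc, the filamin of muscle, by 1.51 on the log2 scale, and Tcap, the cap of titin's end, fell by 1.23. Among 11 splicing factors known to act on sarcomere exons, 1 rose and 1 fell, with a median of 0.19, both shares below those of all genes. With library totals as the scale 5 rose and 1 fell, and the median was 0.53. Ptbp1 rose from 36.9 and 33.3 CPM to 89.2 and 71.3 CPM, and Rbfox1 went from 47.5 and 34.1 CPM to 16.6 and 11.8 CPM, a log2 fold change of -1.52 ± 0.23 (SE, n = 2 per group; edgeR adjusted p = 0.000497). Rbm20, which represses the inclusion of titin I-band exons, was at 127 and 132 CPM in infarcted and 185 and 162 CPM in uninjured libraries and did not pass (edgeR adjusted p = 0.12), though it passed in 1 of 14 alternatives, with the trend with transcript length removed. The part of these factors in titin inclusion was not tested.

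These calls changed when a library of either group was left out. A fit without an uninjured library takes its spread within groups from the infarcted pair alone. That pair differed in atrial mRNA, as given above. The part of this in the lost calls was not tested. When uninjured replicate 2 was left out, edgeR called 0 genes of the M-band, thick filament, Z-disc and splicing factor lists in either direction, and 102 genes higher and 8 lower in all, where all 4 libraries gave 2546 and 2037. Adjusted p-values in that fit were 0.0905 for Ankrd1, 0.0603 for Trim63 and 0.055 for Rbfox1. Without uninjured replicate 1 the M-band list had 1 gene higher and 6 lower, and edgeR adjusted p-values were 0.0645 for Ankrd2, 0.0664 for Fhl1 and 0.167 for Myh7b.

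Markers of several cell types differed between groups. For comparison, 18.3% of all genes tested rose and 14.6% fell. Of 10 cardiomyocyte markers, 6 fell and 0 rose, and they summed to 41860 and 37350 CPM in infarcted and 64500 and 76160 CPM in uninjured libraries. Of 8 fibroblast markers, 5 rose and 0 fell, summing to 8084 and 6525 CPM against 855 and 821 CPM, and all 7 macrophage markers rose, from sums of 116.4 and 93.9 CPM to 307 and 310 CPM. Of 6 smooth muscle markers 2 rose, and of 6 endothelial markers 0 passed. Of 7 tested skeletal muscle markers 3 rose and 1 fell, and Myh1, Myh2 and Myh4, the fast myosins that define that tissue, had 0 to 2 counts in every library. Without uninjured replicate 2, 0 of the cardiomyocyte, smooth muscle and skeletal muscle markers passed, beside 4 of 8 fibroblast and 2 of 7 macrophage markers. Without uninjured replicate 1, 0 smooth muscle markers passed. In bulk tissue, fewer cells of a type and less RNA per cell cannot be told apart, and the part of this makeup in the results above was not tested.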

How the data were processed

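Per the labels' protocols, total RNA of mouse heart was purified with a Qiagen kit and Illumina libraries of polyadenylated RNA were sequenced on a GAII instrument (50 bp, single-end), 1 library for each of 4 mice. The authors deposited raw counts per Ensembl gene, and a table of splicing events with the percent inclusion of exons or percent use of splice sites and, per the file headers, quality fields from which corrected inclusion and exclusion reads were read. For library values with at least 10 reads, 99.98% of the deposited percent values equal 100 times inclusion over all reads within 0.05 points. Event coordinates are on mm9 per the submitters' processing notes. No source used here names the aligner, the counter, the annotation, the event tool or the strandedness; overlapping antisense genes cannot be told apart.

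Groups and replicate numbers came from the labels. Symbols came from GENCODE M21 by Ensembl identifier. Exon events were matched to GENCODE M21 exons on GRCm38 by exon length and distances to the flanking splice sites, without converting coordinates, and 159 of 162 matched. Printed sequences and positions are those of GENCODE M21. Counts were fitted for the whole table in edgeR 4.0.16 (R 4.3.3, TMM, filterByExpr, robust quasi-likelihood F-test, Benjamini-Hochberg over 13905 genes, call at an adjusted p below 0.05); the biological coefficient of variation was 19.3%. There are 2 residual degrees of freedom, so dispersions are moderated across genes. SE is the absolute log2 fold change over the square root of F. CPM use TMM library sizes. Inclusion was tested in edgeR on corrected reads rounded to whole numbers, as a form-by-group interaction with a term per library, for events with at least 10 reads in every library and 5 of each form (5490 exons and 2593 sites, adjusted apart). limma 3.58.1 and DESeq2 1.42.0 were alternatives. The scripts were tested on simulated data.

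Named were the 6 genes, up to 6 genes of each list in order of p, the 3 tested events of each gene with the smallest p and those with groups apart by at least 10 points; other exons were named after their values were seen. The genes and lists were chosen with earlier results of these data known.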

Additional observations from a re-analysis of the deposited data

How the results depend on the processing

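Across 83 alternatives for the 6 genes, 0 reached an adjusted p below 0.05 and 13 turned the sign of a fold change; the smallest adjusted p was 0.0559, for Obsl1 with the transcript length trend removed. With that trend removed the log2 fold changes of Ttn and Myom2 were -0.01 and -0.12. With library totals as the scale, which moved the median of all genes from 0.02 to 0.36, Obsl1, Myom1 and Mybpc3 were at 0.00, 0.34 and 0.26, and 4386 genes were called higher and 786 lower. Myom1 was at 0.04 with at least 5 CPM in 2 libraries, which leaves out Myom3, and at 0.00 without mitochondrially encoded genes. Leaving out each library in turn gave -0.18 to 0.62 for Ttn, -0.54 to -0.13 for Obsl1, -0.10 to 0.07 for Myom1, -0.51 to 0.39 for Myom2, -0.18 to 0.55 for Myom3 and -0.22 to 0.04 for Mybpc3, and 102 to 2144 genes called higher and 8 to 1824 lower.

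The main fits did not treat the replicate number as a pairing of mice. Deviations of infarcted replicate 1 from its group mean correlated with those of uninjured replicate 1 at 0.0846. With 2 libraries per group, the value for uninjured replicate 2 is fixed as its negative, -0.0846. The correlation does not show whether mice were paired. With the replicate block, Myom2 was at 0.00 and Ttn at 0.22, 2950 genes were called higher and 2340 lower, and 2 splice sites were called. Over all sites edgeR called 0 (146 of 2593 at an unadjusted p below 0.05; limma 0, DESeq2 0), 1 with at least 20 reads, 1 with at least 5 reads and 0 to 7 when leaving out each library. Of the named exons, Myom1 exon 18 turned direction, at -0.11 without uninjured replicate 1 (-0.11 to 0.69 over the libraries left out); most of the others were named for groups that do not overlap, which fixes their direction. The count of titin exons with infarcted above uninjured libraries, 32 of 78, was 5 of 8 with at least 20 reads and 24 of 47 with at least 5. It was 34 to 63 when leaving out each library, where by its rule it can only stay or rise. The mean difference of 12.3 points was 16.1 and 10.9 points with at least 5 and 20 reads. Exons that pass a read minimum are chosen in favour of inclusion in infarcted libraries, as given above. The counts and differences over them are therefore not given as support. Among all exons tested in the series, with at least 10 reads in each library, 17.0% had both infarcted libraries higher. Depth limits the titin exons, since their corrected skipping reads have a median of 2.54 to 12.96 per library.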

Other observations

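Titin exons 11, 12 and 13, of 138 nt each, lie near the Z-disc end of the mRNA, and their inclusion has not been described above. Exon 11 was included at 100% and 74.2% in infarcted and 96.8% and 92.7% in uninjured libraries, so that infarcted replicate 2 was lowest. Exon 12 was at 71.4% and 33.3% against 37.8% and 44.3%, and exon 13 at 100% and 80% against 82.9% and 76.5%, with as few as 6 and 7 reads in a library. The infarcted pair enclosed the uninjured pair for exons 11 and 12.

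By the Euclidean distance of log2 CPM, centred on the mean of the 4 libraries, over 5015 genes with at least 20 CPM, the 3 genes nearest to Obsl1 were Nelfcd (distance 0.0255), Dhrs1 (0.0362) and Tpi1 (0.0403). The nearest to Myom3 were Ahnak (0.0591), Rras2 (0.104) and Tns1 (0.118). With 4 libraries such distances only describe these samples.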
